A study of Homo sapiens with 12 samples.

Results

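The genes described here make cholesterol and fatty acids, sense sterols, or move and activate the lipids that are made. The list of 42 genes was chosen by gene name, with earlier results of these data known, and each gene is represented by its passing probe set with the highest mean signal. Of these, 37 had a probe set that names 1 gene, and 36 of those passed a filter on dim signals (a log2 value above 4 on at least 3 of the 12 arrays) and were tested among 10265 genes. Those 36 comprised 15 enzymes of the sterol backbone, 5 sterol sensing genes, 2 sterol transport genes, 6 genes of fatty acid synthesis, 5 of elongation and desaturation, and 3 of fatty acid activation and use. ACSL4 lay below the filter, CYP51A1, FADS1 and ELOVL1 were measured only by probe sets that name several genes, and FDFT1 and ACSL3 were not analysed here.

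Messenger RNA was measured on Affymetrix arrays in LNCaP, an established androgen-sensitive line from a human prostate adenocarcinoma. The 4 groups of 3 arrays were SRF siRNA with R1881, SRF siRNA with ethanol vehicle, control siRNA with R1881, and control siRNA with ethanol vehicle. R1881 is a synthetic androgen, and SRF (serum response factor) is a transcription factor best known for driving actin and immediate-early genes. In every group the cells had been deprived of androgen for 48 h and transfected, and 42 h later they received 5 nM R1881 or vehicle for 48 h. Transfection was transient and a single line was used. The labels call the arrays biological replicates without naming separate cultures, so p-values reflect only how far these arrays vary.

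Cholesterol is built from acetyl-CoA through mevalonate, isoprenoids, squalene and lanosterol, and fatty acids are built from the same acetyl-CoA by carboxylation, chain assembly, elongation and desaturation. Both branches are controlled by the sterol regulatory element-binding proteins, encoded by SREBF1 and SREBF2. SCAP escorts these membrane-bound precursors to the Golgi for cleavage, and the INSIG proteins hold SCAP in the endoplasmic reticulum when sterols are plentiful. In prostate cancer cells androgens have long been known to raise lipid synthesis.

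SRF itself averaged 4.87 ± 0.13 log2 units with R1881 and 4.74 ± 0.28 with vehicle after SRF siRNA, against 6.30 ± 0.18 with R1881 and 6.07 ± 0.14 with vehicle after control siRNA (SD, n = 3 each). That left 36.9% of the control signal with R1881 and 39.5% with vehicle. KLK3, the gene of prostate-specific antigen and a standard androgen target, rose with R1881 by 3.54 log2 units in SRF-silenced and 3.26 in control cells. All 7 luminal prostate markers measured passed the filter, at 5.69 to 14.9 log2 units. The 6 adipocyte and liver markers stayed under 4 on every array, as did 4 of 5 leukocyte markers; the other, LYZ, reached 4.69. Of 7 fibroblast markers 5 stayed under 4, among them DCN and LUM, while COL1A1 and COL3A1 passed the filter. COL3A1 averaged 4.07 log2 units in SRF-silenced cells with R1881 and 7.91 in SRF-silenced cells with vehicle, against 2.97 in control cells with R1881 and 6.45 in control cells with vehicle. COL1A1 averaged 5.69 log2 units in SRF-silenced cells with R1881 and 5.56 in SRF-silenced cells with vehicle, against 6.02 in control cells with R1881 and 5.70 in control cells with vehicle. Among 5 basal and mesenchymal markers VIM and ITGA6 passed. The part of these markers in the results was not tested, and in bulk RNA fewer cells of a type and less RNA per cell cannot be told apart.

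R1881 raised nearly the whole list in both siRNA states. In SRF-silenced cells 31 of the 36 genes rose and 1 fell, where 25.5% of all genes tested rose and 27.7% fell. In control cells 32 rose and 2 fell, where 26.9% of all genes rose and 33.8% fell. The calls are limma's at a Benjamini-Hochberg adjusted p under 0.05. The median change of the list was 1.07 log2 units in SRF-silenced cells and 1.28 in control cells, beside -0.03 in SRF-silenced cells and -0.05 in control cells over all genes tested. A total of 30 genes rose in both states, and INSIG2 was lower with R1881 in both. The shares of all genes called the same way in both siRNA states were not counted. The GAPDH 3-prime to 5-prime signal difference, a sign of RNA integrity, was higher with R1881. It was 0.49 ± 0.14 with R1881 and 0.36 ± 0.04 with vehicle in SRF-silenced cells, and 0.46 ± 0.02 with R1881 and 0.14 ± 0.09 with vehicle in control cells (SD, n = 3 each). Its values overlapped between treatments in SRF-silenced cells and not in control cells. With that difference as a covariate 29 genes rose and 1 fell in SRF-silenced cells, and 28 rose and 1 fell in control cells. The calls for MVD and SREBF1 were then lost in both states, and those for PMVK, ACSS2 and MID1IP1 in control cells. Over all 10265 genes tested, 2109 rose and 2708 fell in SRF-silenced cells with the covariate, and 1490 rose and 2434 fell in control cells. Without it 2614 rose and 2839 fell in SRF-silenced cells, and 2758 rose and 3467 fell in control cells.

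**Figure D1:**
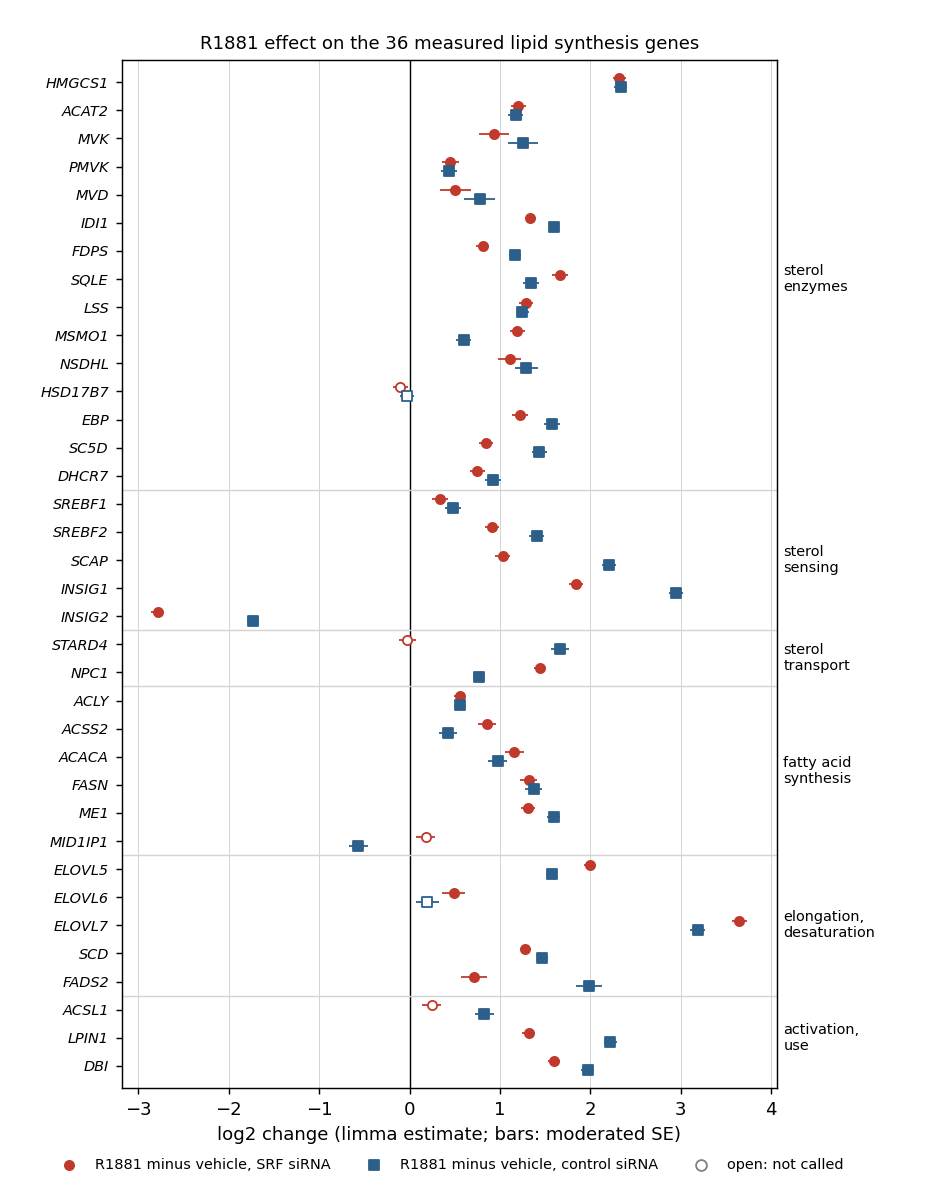
The log2 change with R1881 (x axis) of each of the 36 measured genes, grouped by role, in SRF-silenced cells (red circles) and control cells (blue squares), with moderated standard errors as bars and open symbols for genes not called. Nearly all points lie right of 0, INSIG2 lies left of it in both siRNA states, and STARD4 lies at 0 only in SRF-silenced cells.

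In the sterol backbone 14 of 15 enzymes rose with R1881 in each siRNA state. HMGCS1, which makes the HMG-CoA that feeds the mevalonate pathway, had the largest change of these enzymes in both. In SRF-silenced cells HMGCS1 read 8.83, 8.82 and 8.82 log2 units with R1881, against 6.58, 6.34 and 6.58 with vehicle. In control cells it read 9.46, 9.48 and 9.48 with R1881, against 7.22, 7.09 and 7.11 with vehicle. The groups did not overlap, and the rise was 2.32 ± 0.08 in SRF-silenced cells (SE, adjusted p = 2.19e-10) and 2.34 ± 0.08 in control cells (adjusted p = 1.67e-10). ACAT2, which joins acetyl-CoA units in the step before HMGCS1, rose by 1.20 log2 units in SRF-silenced cells and 1.18 in control cells.

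The enzymes between mevalonate and farnesyl diphosphate rose by less than HMGCS1. MVK, mevalonate kinase, rose by 0.94 log2 units in SRF-silenced cells and 1.26 in control cells. PMVK, the next kinase, rose by 0.45 in SRF-silenced cells and 0.43 in control cells. MVD, the decarboxylase that follows, had group means of 4.23 to 5.23 log2 units, near the filter level, and rose by 0.51 in SRF-silenced cells (adjusted p = 0.025) and by 0.78 in control cells. The call for MVD in SRF-silenced cells was lost without SRF-silenced R1881 replicate 1 or 3 or SRF-silenced vehicle replicate 1 (adjusted p = 0.0606 to 0.0809). IDI1, the isopentenyl diphosphate isomerase, rose by 1.33 log2 units in SRF-silenced cells and 1.60 in control cells, and FDPS, farnesyl diphosphate synthase, by 0.81 in SRF-silenced cells and 1.17 in control cells. Some probes of IDI1 may match other sequences, as may those of HSD17B7 and DBI.

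From squalene onward every enzyme tested except HSD17B7 rose in both siRNA states, by differing amounts. MSMO1 and SC5D of this stretch are given below with the differences between states. SQLE, squalene epoxidase, rose by 1.66 log2 units in SRF-silenced cells and 1.34 in control cells, and LSS, lanosterol synthase, by 1.29 in SRF-silenced cells and 1.25 in control cells. NSDHL, EBP and DHCR7, which remodel the sterol nucleus, rose by 0.75 to 1.23 log2 units in SRF-silenced cells and by 0.93 to 1.58 in control cells. HSD17B7, a 3-ketosteroid reductase of the same stretch, was the one enzyme not called in either state. It averaged 8.48 ± 0.03 log2 units with R1881 and 8.58 ± 0.05 with vehicle in SRF-silenced cells, and 8.39 ± 0.15 with R1881 and 8.42 ± 0.07 with vehicle in control cells (SD, n = 3 each).

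The 5 sensing genes were split by R1881: SREBF1, SREBF2, SCAP and INSIG1 rose in both states and INSIG2 fell in both. INSIG1, a brake on SCAP, read 11.35, 11.31 and 11.15 log2 units with R1881 in SRF-silenced cells, against 9.47, 9.44 and 9.38 with vehicle. Control cells read 11.42, 11.32 and 11.38 with R1881, against 8.31, 8.49 and 8.45 with vehicle. The R1881 arrays of both siRNA states overlapped, while every vehicle array was higher after SRF siRNA than after control siRNA. INSIG1 rose by 1.84 ± 0.08 in SRF-silenced cells (3.58-fold, adjusted p = 1.79e-09) and by 2.95 ± 0.08 in control cells (7.74-fold, adjusted p = 3.2e-11).

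INSIG2, the second brake, went the other way. In SRF-silenced cells INSIG2 read 7.18, 7.11 and 7.06 log2 units with R1881, against 9.85, 9.88 and 9.98 with vehicle. Its control arrays read 7.30, 7.43 and 7.39 with R1881, against 9.08, 9.09 and 9.17 with vehicle. None of the 4 groups overlapped another. INSIG2 fell by 2.79 log2 units in SRF-silenced cells (SE 0.07, 6.91-fold, adjusted p = 2.61e-11) and by 1.73 in control cells (SE 0.07, 3.33-fold, adjusted p = 8.46e-10).

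SCAP, the escort protein, read 9.28, 9.27 and 9.47 log2 units with R1881 in SRF-silenced cells, against 8.36, 8.39 and 8.20 with vehicle. With control siRNA it read 10.18, 10.09 and 10.23 with R1881, against 8.0, 7.97 and 7.90 with vehicle. The control R1881 arrays stood above all others. SCAP rose by 1.03 ± 0.08 in SRF-silenced cells and by 2.21 ± 0.08 in control cells (SE).

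SREBF2, whose product mainly drives sterol genes, read 8.41, 8.38 and 8.51 log2 units with R1881 in SRF-silenced cells, against 7.49, 7.48 and 7.58 with vehicle. Control cells read 7.97, 7.92 and 8.13 with R1881, against 6.67, 6.64 and 6.48 with vehicle. Each group was separate from the next, with SRF siRNA above control siRNA under both treatments. SREBF1, whose product mainly drives fatty acid genes, changed less with R1881, by 0.34 ± 0.09 in SRF-silenced cells (SE, adjusted p = 0.00663) and 0.48 ± 0.09 in control cells (adjusted p = 0.000458).

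STARD4, a cytosolic carrier of cholesterol, responded to R1881 in control cells. In SRF-silenced cells STARD4 read 7.05, 7.35 and 7.22 log2 units with R1881, against 7.21, 7.35 and 7.13 with vehicle, and those groups overlapped. Control arrays read 7.43, 7.43 and 7.38 with R1881, against 5.88, 5.58 and 5.78 with vehicle. Only the control vehicle group stood low. The change was -0.02 ± 0.10 in SRF-silenced cells (adjusted p = 0.865) and 1.66 ± 0.10 in control cells (SE, adjusted p = 3.11e-08). NPC1, which carries cholesterol out of late endosomes and lysosomes, rose by 1.44 log2 units in SRF-silenced cells and 0.77 in control cells.

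**Figure D2:**
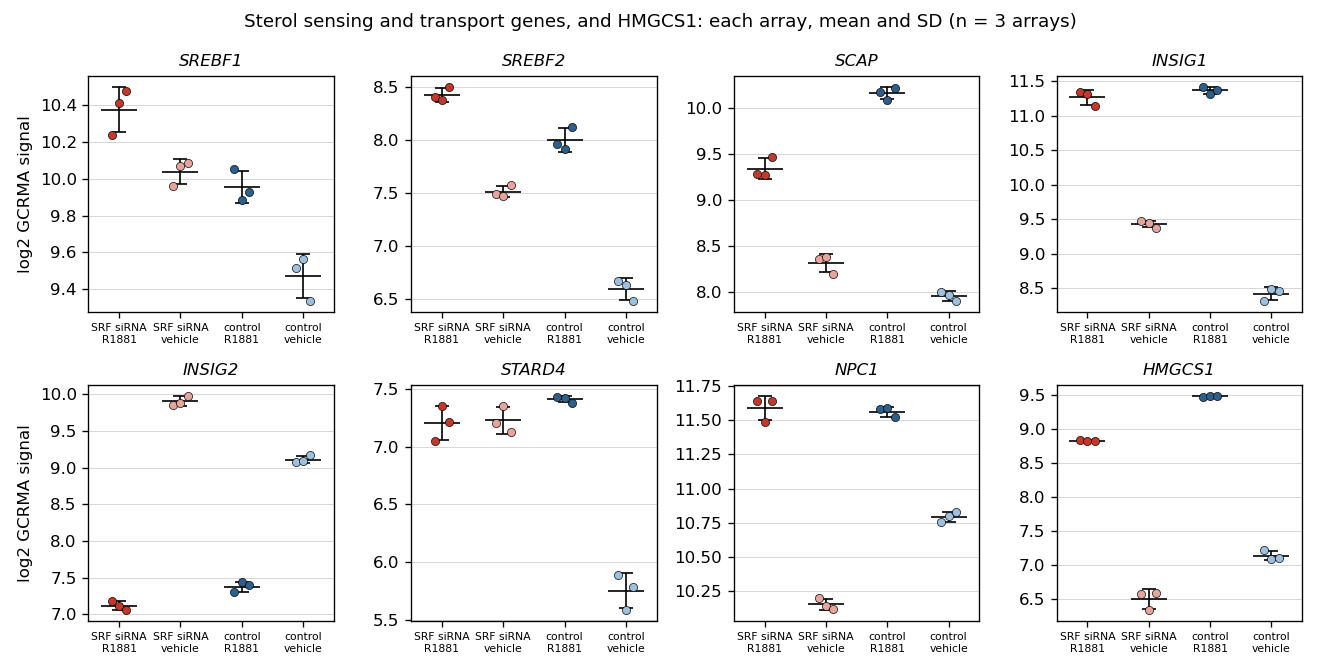
Log2 signal (y axis) of selected sterol genes on each array (points) with the mean and SD of each group of 3 arrays, in SRF-silenced and control cells with R1881 or vehicle. INSIG2 is low in both R1881 groups, and STARD4 is low only in control cells given vehicle.

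Promoter windows were read for the genes whose sensing and transport roles lead these results, for HMGCS1, and for the 2 genes whose window held the sterol regulatory element searched. INSIG2 is shown beside INSIG1 because they moved in opposite directions. Each window is RefSeq sequence of build GRCh38.p14, 300 bases long, from 250 bases before to 50 after the start the RefSeq table uses, printed 5-prime to 3-prime on the gene's strand. Capitals mark the letters TCACNCCAC (a sterol regulatory element) and CCAAT (the box bound by NF-Y, a partner of the sterol regulatory element-binding proteins) on either strand.
SREBF2 (chr22:41832855-41833154, plus strand): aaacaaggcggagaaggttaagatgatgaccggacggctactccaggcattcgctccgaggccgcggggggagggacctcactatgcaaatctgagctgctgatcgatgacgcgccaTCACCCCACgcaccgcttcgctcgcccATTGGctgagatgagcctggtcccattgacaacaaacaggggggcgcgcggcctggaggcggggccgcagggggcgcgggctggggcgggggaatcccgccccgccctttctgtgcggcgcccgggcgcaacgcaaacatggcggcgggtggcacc
MID1IP1 (chrX:38801209-38801508, plus strand): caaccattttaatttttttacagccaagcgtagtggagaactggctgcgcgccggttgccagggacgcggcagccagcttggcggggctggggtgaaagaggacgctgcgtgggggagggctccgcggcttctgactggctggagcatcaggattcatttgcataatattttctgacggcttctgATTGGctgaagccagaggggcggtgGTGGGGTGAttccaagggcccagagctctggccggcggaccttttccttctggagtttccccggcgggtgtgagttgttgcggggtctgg
INSIG1 (chr7:155297628-155297927, plus strand): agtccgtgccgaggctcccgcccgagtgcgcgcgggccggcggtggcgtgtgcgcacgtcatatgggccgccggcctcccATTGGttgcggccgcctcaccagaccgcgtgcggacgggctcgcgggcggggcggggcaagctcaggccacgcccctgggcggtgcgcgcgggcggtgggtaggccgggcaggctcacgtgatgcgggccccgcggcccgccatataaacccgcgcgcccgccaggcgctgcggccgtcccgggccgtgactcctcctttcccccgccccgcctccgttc
STARD4 (chr5:111512486-111512785, minus strand): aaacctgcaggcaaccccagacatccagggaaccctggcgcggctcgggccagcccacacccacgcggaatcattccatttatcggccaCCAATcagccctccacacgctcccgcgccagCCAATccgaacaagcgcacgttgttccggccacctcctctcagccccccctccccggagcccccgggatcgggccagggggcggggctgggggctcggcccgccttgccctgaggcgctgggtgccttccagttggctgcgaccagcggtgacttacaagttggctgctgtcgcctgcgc
HMGCS1 (chr5:43313363-43313662, minus strand): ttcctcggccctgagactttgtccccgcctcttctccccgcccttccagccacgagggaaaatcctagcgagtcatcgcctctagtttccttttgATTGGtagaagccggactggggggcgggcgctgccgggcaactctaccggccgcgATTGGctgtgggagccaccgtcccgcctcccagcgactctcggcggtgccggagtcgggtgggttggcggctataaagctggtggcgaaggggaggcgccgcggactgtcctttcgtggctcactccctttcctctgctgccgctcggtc
INSIG2 (chr2:118088221-118088520, plus strand): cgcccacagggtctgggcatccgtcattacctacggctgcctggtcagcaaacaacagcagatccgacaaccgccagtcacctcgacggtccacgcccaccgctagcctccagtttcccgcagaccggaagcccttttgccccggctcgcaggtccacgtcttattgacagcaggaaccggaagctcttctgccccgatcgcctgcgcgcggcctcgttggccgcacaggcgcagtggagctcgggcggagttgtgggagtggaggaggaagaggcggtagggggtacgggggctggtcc
Of the 42 genes 38 had such a window, and ACAT2, FASN, FDFT1 and SQLE were not searched. For 29 of the 38, the 6 printed ones among them, that start is the outermost one of the gene, and for the other 9 (MVK, PMVK, CYP51A1, DHCR7, SCAP, ACLY, ELOVL6, ACSL1 and LPIN1) it lies inside the gene. TCACNCCAC was found in 2 of 38, SREBF2 and MID1IP1, or 5.26%, beside 1.13% of all 35116 windows and 1.08% of windows of genes tested here. CCAAT was found in 22 of 38, or 57.9%, beside 34.6% of all windows and 38.0% of those of tested genes. The GGGCGG letters bound by SP1 were in 92.1% of the genes' windows, 45.0% of all windows and 71.4% of those of tested genes. The E-box CACGTG was in 15.8% of the genes' windows, 7.26% of all and 10.9% of those of tested genes. AGAACA, a half-site of the androgen response element, was in 1 of 38 windows (PMVK), 14.8% of all windows and 8.56% of those of tested genes. The CArG box, the element SRF binds, was in 0 of 38 windows, 1.29% of all and 0.963% of those of tested genes. All motifs were searched on both strands, and a match or its absence describes only these letters in these windows.

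On the fatty acid side 12 of 14 genes rose with R1881 in each siRNA state, with no fall in SRF-silenced cells and 1 fall, MID1IP1, in control cells. FASN, the synthase that assembles palmitate, read 12.18, 11.97 and 12.17 log2 units with R1881 in SRF-silenced cells, against 10.80, 10.82 and 10.75 with vehicle. In control cells FASN read 12.74, 12.71 and 12.58 with R1881, against 11.15, 11.29 and 11.48 with vehicle. R1881 raised it by 1.32 ± 0.09 in SRF-silenced cells and 1.37 ± 0.09 in control cells (SE), and within each treatment the SRF-silenced arrays lay below the control arrays.

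Of the other fatty acid synthesis genes, ACACA, the carboxylase that makes malonyl-CoA, rose by 1.16 log2 units in SRF-silenced cells and 0.97 in control cells. ME1, the malic enzyme that supplies NADPH, rose by 1.31 in SRF-silenced cells and 1.60 in control cells. ACLY, which cuts citrate to cytosolic acetyl-CoA, rose by 0.55 log2 units in SRF-silenced cells and 0.56 in control cells. ACSS2, which makes acetyl-CoA from acetate, rose by 0.86 in SRF-silenced cells and 0.42 in control cells. MID1IP1, a partner that promotes polymers of acetyl-CoA carboxylase, averaged 9.03 ± 0.12 log2 units with R1881 and 8.85 ± 0.14 with vehicle in SRF-silenced cells, and 8.73 ± 0.18 with R1881 and 9.30 ± 0.06 with vehicle in control cells (SD, n = 3 each). Its change was 0.18 in SRF-silenced cells (adjusted p = 0.17), and it fell by 0.57 log2 units in control cells (adjusted p = 0.000482).

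ELOVL7, an elongase of long-chain fatty acids, had the largest R1881 change of the list in both states. In SRF-silenced cells ELOVL7 read 11.51, 11.49 and 11.47 log2 units with R1881, against 7.96, 7.75 and 7.80 with vehicle. Its control arrays read 11.70, 11.77 and 11.74 with R1881, against 8.46, 8.46 and 8.72 with vehicle. The rise was 3.65 ± 0.09 in SRF-silenced cells (12.6-fold, adjusted p = 1.79e-11) and 3.19 ± 0.09 in control cells (9.13-fold, adjusted p = 3.62e-11).

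ELOVL5, which elongates polyunsaturated fatty acids, rose by 1.99 log2 units in SRF-silenced cells and 1.57 in control cells. SCD, the desaturase that makes monounsaturated fatty acids, rose by 1.28 in SRF-silenced cells and 1.47 in control cells. ELOVL6, which extends palmitate to stearate, rose by 0.49 ± 0.13 in SRF-silenced cells (adjusted p = 0.00643), and its change in control cells was 0.20 ± 0.13 (SE, adjusted p = 0.2). Its rise rests on 1 of 3 probe sets: the others gave 0.48 (adjusted p = 0.11) and 0.15 (adjusted p = 0.506) in SRF-silenced cells. FADS2, a desaturase of polyunsaturated fatty acids, averaged 9.97 ± 0.03 log2 units with R1881 in SRF-silenced cells, against 9.26 ± 0.22 with vehicle (SD, n = 3 each). Control arrays of FADS2 read 10.44, 10.53 and 10.27 with R1881, against 8.22, 8.29 and 8.75 with vehicle. The groups were separate, and the rise was 0.71 ± 0.14 in SRF-silenced cells and 1.99 ± 0.14 in control cells (SE).

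Of the genes that activate or use fatty acids, LPIN1, a phosphatidate phosphatase of glycerolipid synthesis, rose by 1.32 ± 0.07 log2 units in SRF-silenced cells and 2.22 ± 0.07 in control cells (SE). DBI, the acyl-CoA binding protein, rose by 1.60 ± 0.07 in SRF-silenced cells and 1.97 ± 0.07 in control cells. ACSL1, which couples long-chain fatty acids to CoA, rose by 0.83 ± 0.10 in control cells, and its change in SRF-silenced cells was 0.24 ± 0.10 (SE, adjusted p = 0.0614), which was called without SRF-silenced R1881 replicate 1, SRF-silenced vehicle replicate 3 or control vehicle replicate 2.

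**Figure D3:**
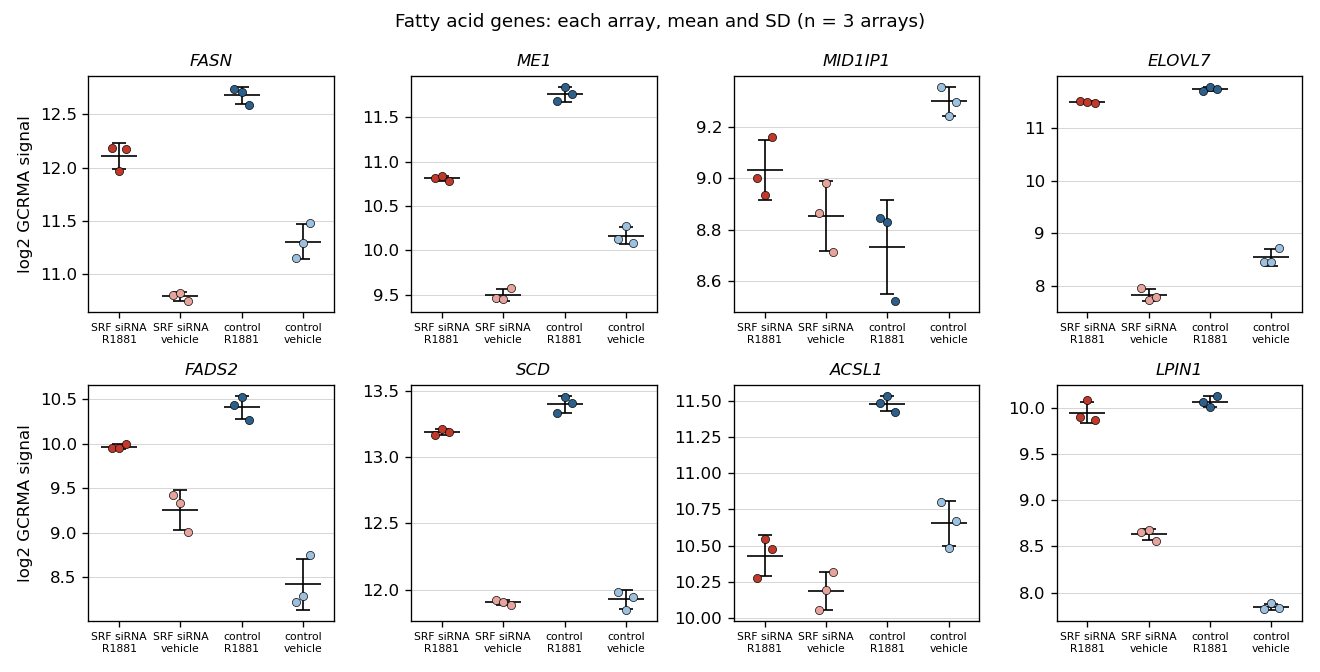
Log2 signal (y axis) of selected fatty acid genes on each array (points) with the mean and SD of each group of 3 arrays, in SRF-silenced and control cells with R1881 or vehicle. ELOVL7 separates R1881 from vehicle by more than 3 log2 units in both siRNA states, and MID1IP1 is highest in control cells given vehicle.

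Whether the R1881 effect itself differed between siRNA states was tested as SRF-silenced minus control. For 6 of the 36 genes the difference was above 0 and for 12 below 0, where 13.2% of all genes tested were called above 0 and 10.5% below. Its median over the list was -0.18 log2 units, beside 0.03 over all genes. Among the sensing genes the difference was -1.18 ± 0.11 for SCAP (SE, adjusted p = 2.19e-05), -1.11 ± 0.11 for INSIG1 (adjusted p = 2.45e-05), -1.05 ± 0.10 for INSIG2 (adjusted p = 1.61e-05) and -0.49 ± 0.11 for SREBF2 (adjusted p = 0.00776). Those of SCAP, INSIG1 and SREBF2 mean a smaller rise in SRF-silenced cells, and that of INSIG2 a deeper fall. The difference for SREBF1 was -0.15 ± 0.12 (adjusted p = 0.436).

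STARD4 had the largest difference of the list, -1.69 ± 0.14 log2 units (SE, adjusted p = 6.73e-06), and NPC1 went the other way at 0.67 ± 0.09 (adjusted p = 0.000317). Of 2 other NPC1 probe sets 1 gave 0.59 (adjusted p = 0.198) and the other -0.82 (adjusted p = 0.0136), so the direction for NPC1 depends on the probe set. STARD4, INSIG2, SCAP, FADS2, ELOVL7, MSMO1, FDPS, MID1IP1 and ACSS2 each rest on a single passing probe set, while all 3 INSIG1 probe sets gave the same call for the difference. In the sterol backbone MSMO1, a sterol methyl oxidase, rose more in SRF-silenced cells (1.19 log2 units against 0.60 in control cells, difference 0.59 ± 0.12). SC5D, a sterol desaturase, rose less (0.85 log2 units against 1.44 in control cells, difference -0.59 ± 0.11), as did FDPS (difference -0.36 ± 0.10) and IDI1 (difference -0.27 ± 0.08, adjusted p = 0.0375). Another SC5D probe set gave 0.19 in SRF-silenced cells, not called, and 1.49 in control cells. Its difference was -1.30, so the size for SC5D depends on the probe set. The IDI1 call was lost without any 1 of 9 arrays, that is all but SRF-silenced vehicle replicate 1 and control vehicle replicates 2 and 3 (adjusted p = 0.0566 to 0.0859), and that of FDPS without control R1881 replicate 3 (adjusted p = 0.0535).

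Among fatty acid genes the difference was -1.28 ± 0.20 log2 units for FADS2, -0.90 ± 0.10 for LPIN1, -0.59 ± 0.14 for ACSL1 and -0.37 ± 0.10 for DBI (SE). For ACACA the probe set used gave 0.18 (adjusted p = 0.417) and another gave -1.46 (adjusted p = 0.000312). Above 0 it was 0.74 ± 0.15 for MID1IP1, 0.46 ± 0.12 for ELOVL7, 0.44 ± 0.14 for ACSS2 and 0.42 ± 0.09 for ELOVL5. With the mean of all passing ELOVL5 probe sets the ELOVL5 difference was 0.04 (adjusted p = 0.887). The ACSS2 call (adjusted p = 0.0414) was lost without any 1 of 8 arrays, that is all but SRF-silenced R1881 replicates 1 and 3, control R1881 replicate 1 and control vehicle replicate 3 (adjusted p = 0.0552 to 0.0986).

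SRF silencing moved the list in both directions. With R1881, 6 of 36 genes were higher and 16 lower in SRF-silenced than in control cells, where 33.6% of all genes tested were higher and 25.4% lower. With vehicle, 13 were higher and 14 lower, where 30.7% of all genes were higher and 25.0% lower. The median change of the list was -0.20 log2 units with R1881 and -0.02 with vehicle, beside 0.06 with R1881 and 0.04 with vehicle over all genes. Sterol and fatty acid genes differed in their counts: with R1881, 4 of 22 sterol genes were higher and 6 lower, and 2 of 14 fatty acid genes were higher and 10 lower. With vehicle, 11 of 22 sterol genes were higher and 5 lower, and 2 of 14 fatty acid genes were higher and 9 lower. The difference between the branches was not tested. The GAPDH signal difference given above did not overlap between the SRF-silenced and control vehicle arrays, and with it as a covariate 8 genes were higher and 14 lower with vehicle, and 6 higher and 16 lower with R1881. Over all 10265 genes tested, that covariate gave 1899 higher and 2042 lower with vehicle, and 3410 higher and 2635 lower with R1881. Without it 3151 were higher and 2566 lower with vehicle, and 3452 higher and 2606 lower with R1881. The 3-prime to 5-prime signal difference for ACTB was 1.58 to 2.21 log2 units with R1881 and 1.57 to 1.84 with vehicle in SRF-silenced cells. In control cells it was 1.48 to 1.52 with R1881 and 1.26 to 1.49 with vehicle. It did not overlap between siRNA states under either treatment, its part in these counts was not tested, and SRF-silenced R1881 replicate 3 had the highest value of both measures (0.64 for GAPDH and 2.21 for ACTB). VIM, a mesenchymal marker, averaged 8.25 log2 units with R1881 and 7.74 with vehicle in SRF-silenced cells, against 6.31 with R1881 and 6.76 with vehicle in control cells, and ITGA6, a basal one, averaged 6.01 with R1881 and 5.54 with vehicle in SRF-silenced cells, against 5.59 with R1881 and 5.56 with vehicle in control cells. Of the 7 luminal markers 5 were lower and 2 higher after SRF siRNA under each treatment, with a median change of -0.54 log2 units with R1881 and -0.48 with vehicle. The part of these markers in the counts was not tested.

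**Figure D4:**
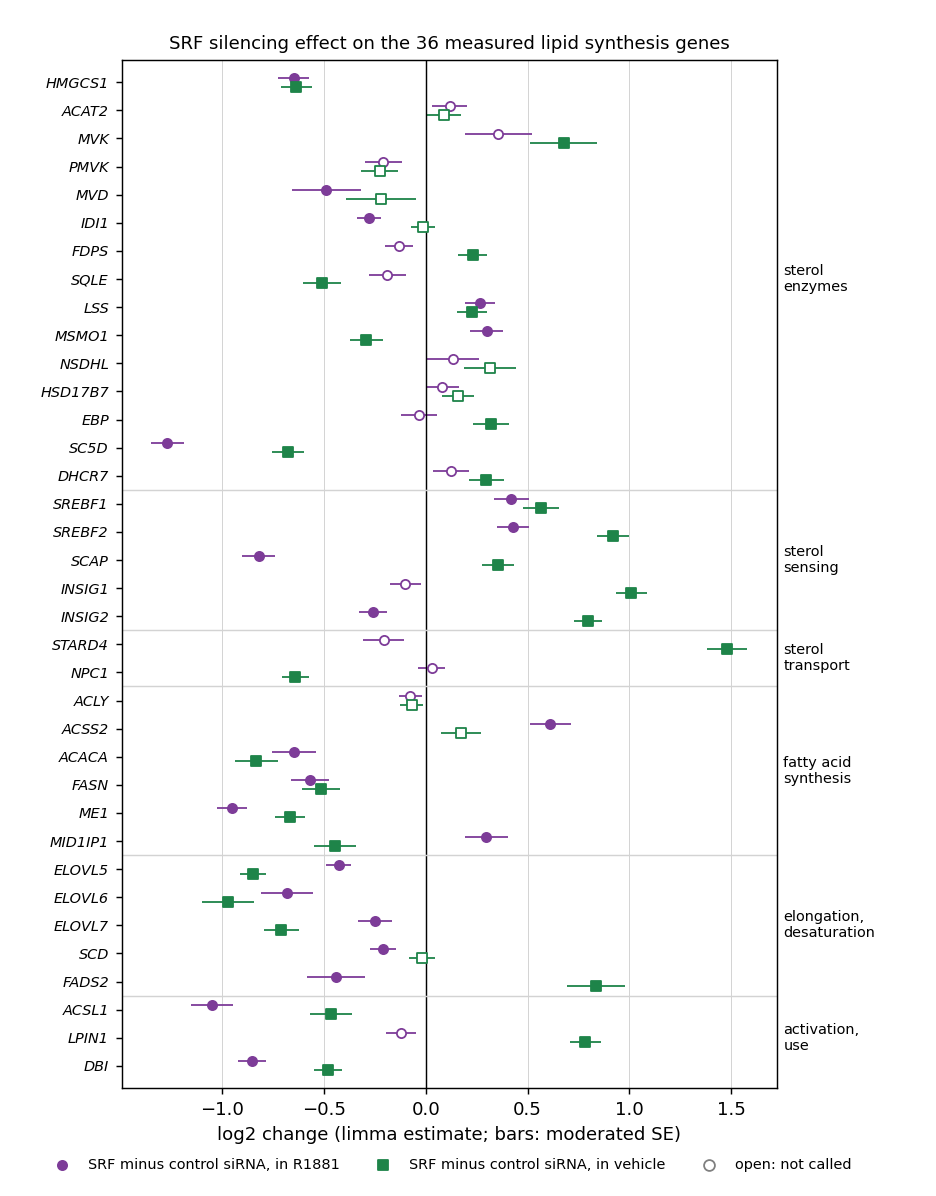
The log2 change with SRF silencing (x axis) of each of the 36 measured genes, grouped by role, with R1881 (purple circles) and with vehicle (green squares), with moderated standard errors as bars and open symbols for genes not called. All 5 sensing genes lie right of 0 with vehicle, and all 5 elongation and desaturation genes lie left of 0 with R1881.

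With vehicle all 5 sensing genes were higher after SRF siRNA, by 1.01 ± 0.08 log2 units for INSIG1, 0.92 ± 0.08 for SREBF2, 0.80 ± 0.07 for INSIG2, 0.57 ± 0.09 for SREBF1 and 0.36 ± 0.08 for SCAP (SE). With R1881 the same genes did not move together: SREBF2 and SREBF1 were higher by 0.43 and 0.42 log2 units, SCAP was lower (-0.82), INSIG2 was lower (-0.26), and INSIG1 had -0.10 (adjusted p = 0.279). Of 3 INSIG1 probe sets 1 was called lower with R1881 (-0.38, adjusted p = 0.0123), so that call depends on the probe set. STARD4 had the largest change with vehicle, 1.48 ± 0.10, and -0.21 ± 0.10 with R1881 (adjusted p = 0.0908). NPC1 was lower with vehicle by 0.64 log2 units (-0.64 ± 0.07), and had 0.03 with R1881. Another NPC1 probe set gave -2.12 with R1881 and -1.30 with vehicle, and the third gave 0.34 with R1881 and -0.24 with vehicle and was not called, so the size and the R1881 call for NPC1 depend on the probe set.

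Of the backbone enzymes, HMGCS1 fell by 0.65 log2 units with R1881 and by 0.64 with vehicle, and SC5D fell by 1.27 with R1881 and by 0.68 with vehicle. With vehicle 1 of 2 probe sets of each gene was called, and with R1881 1 of 2 HMGCS1 probe sets. SC5D read 11.36, 11.37 and 11.37 log2 units with R1881 in SRF-silenced cells, against 12.56, 12.76 and 12.59 in control cells. With vehicle it read 10.55, 10.53 and 10.49 in SRF-silenced cells, against 11.25, 11.05 and 11.29 in control cells. LSS rose by 0.27 with R1881 and by 0.23 with vehicle, and its vehicle call was lost without SRF-silenced vehicle replicate 3 or control vehicle replicate 3 (adjusted p = 0.0529 to 0.0722). MVK, EBP, DHCR7 and FDPS were higher with vehicle by 0.23 to 0.68 log2 units and were not called with R1881. Other probe sets of MVK were called with R1881 (0.41 and 0.52) and not with vehicle (0.09 and 0.37), and so was another of DHCR7 (0.25 with R1881 and 0.15 with vehicle). The other EBP probe sets were not called with vehicle (0.20 and 0.16), so the split between treatments depends on the probe set, and FDPS has 1 passing probe set. The rise of LSS rests on 1 of its 3 probe sets: the others gave -0.27 and -1.29 with R1881 and -0.33 and -0.26 with vehicle, of which -1.29 was called. The probe set with -1.29 read above 4 log2 units only in control cells with R1881 (4.92, 4.42 and 4.71). It passed the filter through that group alone, and the size of its fall depends on the background estimate.

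Elongation and desaturation genes were all lower with R1881 after SRF siRNA. ELOVL6 fell by 0.68 log2 units with R1881 and by 0.97 with vehicle, ELOVL5 by 0.43 with R1881 and 0.85 with vehicle, and ELOVL7 by 0.25 with R1881 and 0.71 with vehicle. Of 3 ELOVL5 probe sets 2 were called lower with R1881 and 1 with vehicle. ELOVL6 read 6.89, 6.97 and 7.06 log2 units with R1881 in SRF-silenced cells, against 7.60, 7.65 and 7.71 in control cells. With vehicle ELOVL6 read 6.19, 6.52 and 6.75 in SRF-silenced cells, against 7.59, 7.50 and 7.28 in control cells. SCD fell by 0.21 with R1881 and had -0.02 with vehicle (adjusted p = 0.814). Of 4 SCD probe sets 2 were called lower with R1881 (range of all 4 -0.82 to -0.21) and 1 with vehicle (range -0.36 to -0.02). FADS2 was lower with R1881 (-0.44 ± 0.14) and higher with vehicle (0.83 ± 0.14, SE).

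Of the 6 fatty acid synthesis genes 2 were higher (ACSS2 and MID1IP1) and 3 lower with R1881, and 4 were lower with vehicle, beside the shares of all genes given above. ME1 fell by 0.95 log2 units with R1881 and by 0.67 with vehicle, ACACA by 0.65 with R1881 and 0.83 with vehicle, and FASN by 0.57 with R1881 and 0.51 with vehicle. ACSS2 rose by 0.61 ± 0.10 with R1881 (SE, adjusted p = 0.000215), and had 0.17 with vehicle (adjusted p = 0.161). ACSL1 and DBI fell under both treatments, ACSL1 by 1.05 with R1881 and 0.47 with vehicle and DBI by 0.85 with R1881 and 0.48 with vehicle. LPIN1 rose by 0.78 with vehicle and had -0.12 with R1881 (adjusted p = 0.185). A total of 10 genes fell under both treatments (HMGCS1, SC5D, ACACA, FASN, ME1, ELOVL5, ELOVL6, ELOVL7, ACSL1 and DBI) and 3 rose under both (SREBF1, SREBF2 and, by its brightest probe set alone, LSS). The shares of all genes called the same way under both treatments were not counted. Another HMGCS1 probe set was called under neither treatment (-0.77 with R1881 and -0.15 with vehicle). Another of SC5D gave -0.0054 with vehicle, and another of ELOVL5 gave 0.50 with R1881 and -0.08 with vehicle, none of them called. With R1881 1 of 2 SREBF1 probe sets was called. MSMO1, SCAP, INSIG2, MID1IP1 and FADS2 had opposite calls in the 2 treatments. The MID1IP1 call with R1881 (0.30) was lost without SRF-silenced R1881 replicate 3 or control R1881 replicate 3 (adjusted p = 0.1005 to 0.1228). Without control R1881 replicate 2 the R1881 calls of SCD (adjusted p = 0.0617) and FADS2 (adjusted p = 0.0644) were lost, and that of ELOVL7 was lost without replicate 2 or 3 of either R1881 group (adjusted p = 0.0551 to 0.0733).

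Genes of neighbouring pathways were taken from lists that hold none of the genes above. All these lists were chosen with earlier results of these data known. A contrast between their counts and those above may therefore reflect which genes were put in which list, and it was not tested. Their counts with R1881 stand beside 25.5% of all genes tested that rose and 27.7% that fell in SRF-silenced cells, and 26.9% that rose and 33.8% that fell in control cells. Of 10 further sterol pathway genes tested, 1 rose and 3 fell in SRF-silenced cells, and 2 rose and 2 fell in control cells. GGPS1, which makes geranylgeranyl diphosphate, rose by 0.78 log2 units in SRF-silenced cells and 0.75 in control cells, and TM7SF2, a sterol reductase, fell by 0.66 in SRF-silenced cells and by 0.88 in control cells. Of 14 other fatty acid and glycerolipid genes, 6 rose and 3 fell in SRF-silenced cells, and 5 rose and 7 fell in control cells. Of 15 fatty acid oxidation genes, 3 rose and 6 fell in SRF-silenced cells, and 4 rose and 5 fell in control cells. SLC25A20, the carrier that brings acylcarnitines into mitochondria, rose by 1.02 log2 units in SRF-silenced cells and 1.49 in control cells. After SRF siRNA, MBTPS1, which makes the first cut in the sterol regulatory element-binding proteins, rose by 0.51 with R1881 and 0.69 with vehicle, and MBTPS2, which makes the following cut, fell by 0.93 with R1881 and by 0.67 with vehicle.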

How the data were processed

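LNCaP messenger RNA was measured on 12 arrays in 4 groups of 3. The deposited values are log2 signals per probe set and array, made by the authors with GCRMA, per the submitters' processing notes, with no version given. GCRMA estimates background from probe sequence, so differences near the dim end (log2 values of 2 to 4) depend on that estimate. For each gene the passing probe set with the highest mean was used. A model of 4 group means was fitted to all 10265 genes with limma 3.58.1 in R 4.3.3, and p-values were adjusted by Benjamini-Hochberg over all of them. No further normalization was applied. Array medians ran from 2.97 to 3.06 log2 units, arrays of a group correlated at 0.996 to 0.998, and the number of arrays limits the precision. Member genes, roles and the other lists were chosen with earlier results of these data known. Genes named with values were the called members with the 8 largest changes per contrast, all members called for the difference of R1881 effects, the 5 sensing genes, members called against their role, and examples in pathway order; outside the list, SRF, KLK3 and the called genes with the 3 largest changes per list and contrast. COL1A1, COL3A1, LYZ, VIM and ITGA6 are given as markers. The fit was tested on simulated data. Alternatives changed the filter, floor, probe set, normalization, variance model, covariate, block, thresholds and arrays used. Symbols followed the platform annotation, updated by gene number. Plots used Python 3.11.15 with matplotlib 3.10.9.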

Additional observations from a re-analysis of the deposited data

Results flagged for a closer look

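For 18 genes of the list R1881 acted differently in SRF-silenced than in control cells, by the test of the difference itself (limma, adjusted over 10265 genes). Differences are SRF-silenced minus control, in log2 units. In sterol sensing and transport they were -1.69 for STARD4, -1.18 for SCAP, -1.11 for INSIG1, -1.05 for INSIG2, -0.49 for SREBF2 and 0.67 for NPC1. Among sterol enzymes they were -0.59 for SC5D, -0.36 for FDPS, -0.27 for IDI1 and 0.59 for MSMO1. Fatty acid genes gave -1.28 for FADS2, -0.90 for LPIN1, -0.59 for ACSL1, -0.37 for DBI, 0.74 for MID1IP1, 0.46 for ELOVL7, 0.44 for ACSS2 and 0.42 for ELOVL5. The IDI1, FDPS and ACSS2 calls were lost without single arrays. With the mean of passing probe sets 3 calls were lost, those of NPC1 and ELOVL5 among them. The 4 IDI1 probe sets gave differences from -0.43 to 0.19. With the GAPDH signal difference as a covariate IDI1 (adjusted p = 0.142), FDPS (0.101), SREBF2 (0.0557), ACSS2 (0.0787) and ELOVL7 (0.0724) were no longer called.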

How the results depend on the processing

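Replicate numbers did not pair the arrays: same-numbered arrays of different groups correlated at -0.21 to 0.10 in their deviations. With the replicate block 34 genes of the list were called for R1881 in control cells, 32 in SRF-silenced cells, 17 for the difference, 27 for silencing with vehicle and 23 with R1881. Over all 10265 genes tested, that block gave 2730 rises and 3418 falls with R1881 in control cells, and 2541 rises and 2775 falls in SRF-silenced cells. For the difference 1223 were above 0 and 977 below. After SRF siRNA 3075 were higher and 2510 lower with vehicle, and 3371 higher and 2550 lower with R1881. A 1.5-fold minimum left 11 calls of 18 for the difference, 15 of 27 for silencing with vehicle and 9 of 22 with R1881. The shares of all genes under that minimum were not counted. Leaving out each array in turn gave 34 calls for R1881 in control cells throughout, 31 to 33 in SRF-silenced cells, 15 to 19 for the difference, 27 to 29 for silencing with vehicle and 18 to 22 with R1881. Over all 10265 genes, 2527 to 2782 then rose and 3190 to 3497 fell with R1881 in control cells, and 2257 to 2623 rose and 2434 to 2844 fell in SRF-silenced cells. For the difference 1094 to 1417 were above 0 and 894 to 1116 below. After SRF siRNA 2832 to 3184 were higher and 2280 to 2606 lower with vehicle, and 3036 to 3493 higher and 2334 to 2636 lower with R1881. With the mean of all passing probe sets 5 values called with either choice changed sign: the difference for LSS (-0.31) and ACACA (-0.64), silencing of LSS with vehicle (-0.12) and with R1881 (-0.43), and silencing of NPC1 with R1881 (-0.58). Among values called with neither, the difference for MVK (0.05, against -0.32) and silencing of IDI1 with vehicle (0.04, against -0.01) did too. With the same choice the difference for NPC1 (0.15, adjusted p = 0.53) was no longer called. The mean for LSS takes in the probe set that read above 4 log2 units only in control cells with R1881. No called value of the list changed sign under median scaling, quantile normalization, the floor, the filters or the GAPDH covariate. With the covariate 13 differences of the list were called, and over all 10265 genes 1187 were above 0 and 724 below.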

Other observations

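Genes that store and release cholesterol were not described above. SOAT1, which makes cholesteryl esters, rose with R1881 by 1.63 log2 units in SRF-silenced cells and 1.67 in control cells. NCEH1, an esterase that releases cholesterol from them, rose by 3.66 in SRF-silenced cells, where its vehicle mean of 3.95 lay under the filter level, and by 2.14 in control cells. ABCG1, a cholesterol exporter, fell by 1.61 log2 units in SRF-silenced cells and by 0.75 in control cells. Of 6 tested genes of storage and export, 3 rose and 1 fell in SRF-silenced cells, and 3 rose and 2 fell in control cells, where 25.5% of all genes rose and 27.7% fell in SRF-silenced cells and 26.9% rose and 33.8% fell in control cells. LIPA, the lysosomal acid lipase, was higher after SRF siRNA by 1.15 log2 units with R1881, and its R1881 effect differed by 0.49. NR1H3, an oxysterol receptor, was higher after SRF siRNA by 0.67 with R1881 and 0.94 with vehicle. DGAT2, which makes triglycerides, averaged 8.02 log2 units with R1881 and 8.39 with vehicle in SRF-silenced cells, and 5.70 with R1881 and 8.12 with vehicle in control cells. Its R1881 effect differed by 2.04 ± 0.23 between them (SRF-silenced minus control, SE, adjusted p = 8.3e-05). TMEM97, which binds NPC1, was higher after SRF siRNA by 1.60 log2 units with R1881 and 1.27 with vehicle. LBR, a sterol reductase of the nuclear envelope, was higher after SRF siRNA with vehicle by 0.81 and fell with R1881 by 0.40 log2 units in SRF-silenced cells.

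Of other fatty acid and glycerolipid genes, SCD5, a stearoyl-CoA desaturase, fell with R1881 by 2.01 log2 units in SRF-silenced cells and by 1.94 in control cells, and was higher after SRF siRNA by 1.64 with R1881 and 1.71 with vehicle. DGAT1, which also makes triglycerides, was higher after SRF siRNA by 1.45 with R1881 and 1.49 with vehicle. ELOVL2, an elongase, rose with R1881 by 1.59 in control cells, where its vehicle mean of 3.26 lay under the filter level. Its SRF-silenced means, 3.78 with R1881 and 3.28 with vehicle, lay under that level too. Only its control R1881 mean, 4.84, lay above, so the size of the rise depends on the background estimate. HACD2, a dehydratase of elongation, rose with R1881 by 1.12 in SRF-silenced cells. IDH1, which makes cytosolic NADPH, rose with R1881 by 1.25 in SRF-silenced cells, was higher after SRF siRNA by 0.52 with vehicle, and its R1881 effect differed by 0.47. For AGPAT2, an acyltransferase of glycerolipid synthesis, the R1881 effect differed by 0.91.

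Of the fatty acid oxidation genes, ETFB, an electron carrier subunit, fell with R1881 by 0.92 log2 units in SRF-silenced cells and by 0.76 in control cells, HADHB fell by 0.77 in control cells and ACAA2 fell by 0.71 in SRF-silenced cells. HADHB and ACAA2 are thiolases of the pathway. After SRF siRNA DECR1, a reductase for unsaturated chains, fell by 1.09 with R1881 and by 0.84 with vehicle, HADH fell by 0.81 with R1881, ACADS fell by 1.03 with vehicle, and ACAA2 rose by 1.46 with vehicle. The R1881 effect of ACADM differed by -0.74, and like ACADS it encodes an acyl-CoA dehydrogenase.

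Probe sets of a gene did not always give the same value. A second ME1 probe set fell after SRF siRNA by 2.34 log2 units with R1881 and by 2.43 with vehicle. A second ACACA probe set rose with R1881 by 1.29 log2 units in SRF-silenced cells and 2.75 in control cells, a difference of -1.46. Of the 22 genes with several passing probe sets, all probe sets gave the same call for R1881 in 16 genes in SRF-silenced cells and in 18 genes in control cells, and for the difference of R1881 effects in 3 genes. For that difference no probe set was called in 10 genes, some were in 8, and in 1 the calls were opposite.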
